A study of Mus musculus with 24 samples.

Results

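A set of 55 genes, of 26264 in the table, rose with retinoic acid (RA) in mouse embryonic stem cells (ESCs) and stood no more than 1.1 times higher at 6 h than at 3 h. The set was chosen by the RA response itself. Levels in CPM (counts scaled to the total of their library, with 0.1 added) were averaged over the 4 libraries of each RA time in each of 2 clones. In each clone the higher of the 3 h and 6 h means had to be at least 1 CPM and at least 2 times the 0 h mean, and over both clones the 6 h mean had to be at most 1.1 times the 3 h mean. Before symbols were dropped, 232 genes met the rise in both clones and 60 of these met the plateau limit. Symbols of the Hox, Cyp, Rar, Wnt, Cdx, Gata, Meis, Pbx, Nr, Fos, Jun, Egr, Ier, Dusp, Id, Stra, Rbp, Dhrs and Zscan4 series, with Hotair, Cdk15 and 1110002J07Rik, were then dropped, which removed 5 genes from the 60 (Cyp11a1, Wnt8a, Hoxa10, Dusp5 and Rara). Of the 193 induced genes left, 55 met the plateau limit and 138 were still rising at 6 h. The limit has no lower bound, so members could fall by 6 h, and 11 of the 55 were under 0.8 of their 3 h level.

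Polyadenylated RNA was measured in 24 libraries, which form 12 groups of 2 replicates. Both clones are ESC lines grown with serum and LIF that overexpress the plant F-box protein TIR1, and each is a single clone. In BAP1-AID an HA-AID degron was joined to the C terminus of BAP1, the deubiquitinase that removes the Polycomb mark from histone H2A, and in UTX-AID the tag was joined to the N terminus of UTX, a demethylase of the Polycomb mark on histone H3. Each clone was kept without (-IAA) or with (+IAA) the auxin indole-3-acetic acid, which directs TIR1 to degrade the tagged protein. Cells were taken at 0, 3 or 6 h of RA, which was given without LIF. No group was left without both RA and LIF, so the effects of RA and of leaving out LIF cannot be told apart. A rise with RA here covers both. Per the study, IAA was given for 2 h before RA. In the +IAA arm, RA time and the time since IAA was added therefore cannot be told apart. RNA counts do not report the loss of the protein, so they give no check of the +IAA arm. The labels do not say that replicates came from separate cultures, so p-values measure the spread between these libraries, which may be technical.

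RA enters the nucleus and binds receptors of the RAR family, which sit on DNA with RXR partners. Ligand releases corepressors and recruits coactivators, so target genes can respond within hours without new protein. Among the earliest targets are genes that limit the signal, such as Cyp26a1, which encodes an enzyme that degrades RA. Genes that reach their level early can therefore be read apart from those that keep climbing, and the level that is reached depends on synthesis as well as on how fast the RNA turns over.

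Library totals ranged from 42018795 to 54034789 counts, and 3 counts corresponded to 0.0555 to 0.0714 CPM. All 10 ESC markers had a mean above 1 CPM and their summed level was 4092 to 5129 CPM in the 24 libraries. The summed level of 8 primitive endoderm markers was 50.9 to 85.5 CPM, and that of 7 fibroblast or feeder markers was 2.54 to 13.5 CPM, with Postn at 0 in all 24 libraries. The 6 markers of 2-cell-like cells summed to 0.351 to 1.495 CPM in BAP1-AID libraries, and in UTX-AID libraries to 11.9 to 24.5 CPM. The 6 trophoblast markers summed to 21.05 to 27.2 CPM at 0 h and 28.6 to 30.1 CPM at 3 h in BAP1-AID. In UTX-AID they summed to 16.2 to 20.2 and then 20.7 to 29.96 CPM, so the sums were higher at 3 h. At 6 h the sums were 26.3 to 30.5 CPM in BAP1-AID and 20.0 to 23.1 CPM in UTX-AID. One of these markers, Tfap2c, was itself among the RA-induced genes still rising at 6 h. The fibroblast sum in BAP1-AID was lower at each later time, at 12.1 to 13.5, then 8.78 to 10.5, then 6.65 to 8.52 CPM. The part of these cells in the RA response and in the differences between the clones was not tested, and in bulk RNA fewer cells of a type and less RNA per cell cannot be told apart.

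Genes of the retinoid pathway rose in both clones. The list of 26 holds none of the 55. Of the plateau genes dropped by symbol, Rara alone is on this list. The other list genes did not meet the limits on rise and plateau. A gene was called where edgeR's quasi-likelihood test gave an adjusted p under 0.05 with a log2 fold change beyond 1 in size. At 3 h, 10 of 24 tested list genes were called higher in BAP1-AID, 10 of 26 were in UTX-AID, and 0 were called lower. Over all genes tested at 3 h, BAP1-AID had 2.93% called and UTX-AID 1.76%. At 6 h the counts were 12 of 24 and 9 of 26, against 5.12% and 2.61% of all genes, again with 0 lower. Cyp26a1 rose by a log2 fold change of 8.07 (SE 0.07) in BAP1-AID and 7.18 (SE 0.21) in UTX-AID at 3 h, and by 8.95 and 7.93 at 6 h. Dhrs3, which encodes an enzyme that returns retinal to retinol, rose by 3.89 (SE 0.11) and 3.22 (SE 0.11) at 3 h and by 4.30 and 3.61 at 6 h. Rara, the receptor gene dropped from the set by symbol, rose by 1.43 (SE 0.05) and 1.30 (SE 0.07) at 3 h and stood at 1.13 and 0.96 at 6 h, where only the BAP1-AID value was called.

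The promoters of the 2 members with the largest 3 h rise and known start sites, and of 3 further members described below, are shown from 250 bases before to 50 after the start (GRCm39, the build of the deposited counts, with GENCODE starts), on the strand of the gene. Capitals mark RA receptor motifs (AGGTCA, or with a changed base or bases AGTTCA, or GGGTCA, or else GGTTCA, on either strand) and the letters TATAAA on the gene's strand.
Tal2, chr4:53779455-53779754, plus strand: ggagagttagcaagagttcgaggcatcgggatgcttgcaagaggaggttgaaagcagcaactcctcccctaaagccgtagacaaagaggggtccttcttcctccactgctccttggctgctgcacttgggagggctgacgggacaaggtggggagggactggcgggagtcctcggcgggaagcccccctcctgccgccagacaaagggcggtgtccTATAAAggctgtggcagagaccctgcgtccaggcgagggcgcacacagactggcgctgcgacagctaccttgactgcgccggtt
Acp5, chr9:22042867-22043166, minus strand: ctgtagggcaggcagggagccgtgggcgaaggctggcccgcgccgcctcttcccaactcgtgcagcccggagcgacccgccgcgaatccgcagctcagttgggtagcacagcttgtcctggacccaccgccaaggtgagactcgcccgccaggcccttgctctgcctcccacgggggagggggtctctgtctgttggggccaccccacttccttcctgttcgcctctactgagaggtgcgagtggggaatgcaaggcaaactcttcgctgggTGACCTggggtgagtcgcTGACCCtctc
Mmp9, chr2:164789889-164790188, plus strand: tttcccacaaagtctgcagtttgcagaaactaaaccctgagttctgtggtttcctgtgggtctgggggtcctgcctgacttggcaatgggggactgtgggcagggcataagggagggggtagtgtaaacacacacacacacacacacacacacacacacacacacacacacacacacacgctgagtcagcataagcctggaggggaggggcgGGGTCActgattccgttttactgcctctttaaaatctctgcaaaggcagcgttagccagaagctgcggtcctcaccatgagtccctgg
Foxa1, chr12:57592895-57593194, minus strand: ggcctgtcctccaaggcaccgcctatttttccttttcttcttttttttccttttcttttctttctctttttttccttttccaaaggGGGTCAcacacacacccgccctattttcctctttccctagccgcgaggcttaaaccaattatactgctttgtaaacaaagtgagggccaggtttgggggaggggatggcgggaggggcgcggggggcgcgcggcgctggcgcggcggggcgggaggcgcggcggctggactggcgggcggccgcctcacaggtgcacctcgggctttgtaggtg
Lefty1, chr1:180762337-180762636, plus strand: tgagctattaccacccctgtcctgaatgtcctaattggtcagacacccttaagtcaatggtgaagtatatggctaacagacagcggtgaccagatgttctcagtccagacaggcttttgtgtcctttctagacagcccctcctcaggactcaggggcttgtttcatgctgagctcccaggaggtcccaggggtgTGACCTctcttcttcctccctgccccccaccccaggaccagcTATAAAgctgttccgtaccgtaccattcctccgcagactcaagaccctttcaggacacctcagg

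Of the 55 members, 53 matched a GENCODE gene by symbol, and all 53 were protein coding. The receptor motif lay in 31 of their 53 promoters (58.5%), against 37.4% of promoters of the still rising genes, 39.7% of genes with a mean above 1 CPM and 42.8% of all 23897 matched genes. TATAAA lay in 4 of the 53 (7.55%: Tal2, Kcnj9, Mafa and Lefty1). The share was 7.63% for the still rising genes, 4.52% for genes above 1 CPM and 8.0% for all. The median GC content of the member promoters was 62.0%, against 60.0% for the still rising genes and 58.7% for genes above 1 CPM. These shares are a description, since the letters of a motif show no binding.

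Pairs of receptor motifs in the same direction are the arrangement to which RAR and RXR bind as a pair. With 5, 2 or 1 bases between the motifs (DR5, DR2, DR1), 0 of the 53 promoters held such a pair. Within 2 kb on either side of the start, DR5 was found at 2 members (3.77%), DR2 at 2 (3.77%) and DR1 at 3 (5.66%). The shares were 1.33%, 3.49% and 2.91% of all matched genes, and 4.58% of the still rising genes for each. All such pairs found near member starts are shown with the motifs in capitals and a few bases on each side. Each is on the strand on which the letters of the motif read. The coordinates are those of the pair. At Acp5 the pairs overlap, with 3 motifs spaced by 2 bases each.
Tbx3 DR5, chr5:119807243-119807259: gatggcAGGTCAcaccaAGTTCAaagaat
Zmiz1 DR5, chr14:25457718-25457734: tgaaggAGTTCAagccgAGGTCAgatcag
Acp5 DR2, chr9:22043802-22043815: ggccgtggAGGTCAgaGGGTCAagagttca
Acp5 DR2, chr9:22043810-22043823: aggtcagaGGGTCAagAGTTCAtgataaat
Adgre5 DR2, chr8:84466445-84466458: aggcaggaGGGTCAaaAGTTCAaggtcatt
Bhlha15 DR1, chr5:144125507-144125519: aggtgtgaAGGTCAgAGTTCAacatcaac
Phlda1 DR1, chr10:111340650-111340662: tgggctacAGTTCAcAGTTCAgtgctttt
Plekhm2 DR1, chr4:141390308-141390320: gagagtggAGGTCAgAGGTCAacttttga

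The median span of the members in the genome was 14547 bp (quartiles 6406 and 27967), against 33806 bp (13336.5 and 97853.5) for the still rising genes, 25750 bp for genes above 1 CPM and 18678 bp for all matched genes. The median number of exons was 5, against 9 for the still rising genes, 9 for genes above 1 CPM and 6 for all matched genes. Misp3 (2299 bp), Phlda1 (2360 bp), Tnfrsf13c (2637 bp) and Mafa (2739 bp) were the shortest, and Kazn (375356 bp) and Mecom (596719 bp) the longest. The median length of the transcript was 3628 bases for the members and 3678 for the still rising genes. No test was made of these differences. The GC content of member transcripts had a median of 56.1%, against 54.5% and, for genes above 1 CPM, 50.3%.

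**Figure D1:**
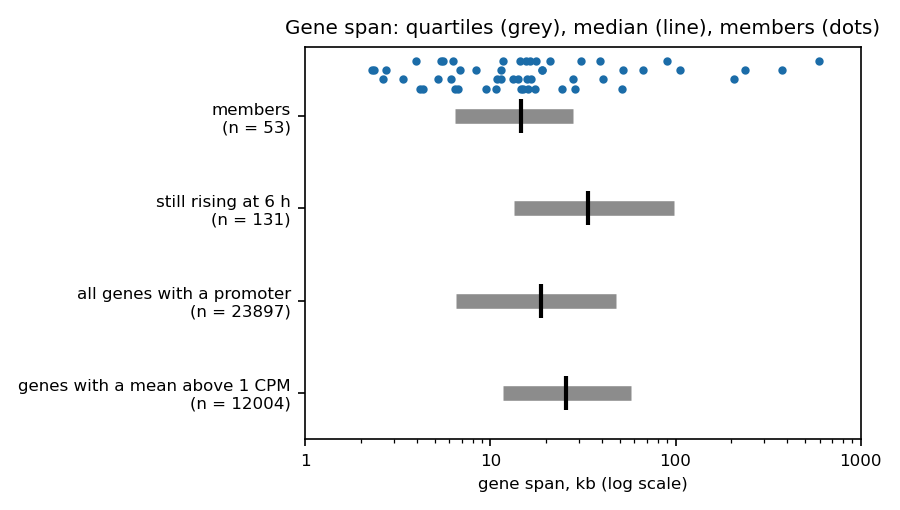
Span in the genome (kb, log axis) of the 53 matched members, 131 matched RA-induced genes still rising at 6 h, all 23897 matched genes and 12004 genes with a mean above 1 CPM. Grey bars run from the lower to the upper quartile, black lines are medians (14547 bp for members, 33806 bp for the still rising genes) and dots are single members.

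The rise itself chose the members, so its values are given as a description with no test. The median 3 h level over both clones was 3.11 times the 0 h level, with 10 members above 5 times, 20 at 3 to 5 times and 25 under 3 times. The 6 h level had a median of 0.984 of the 3 h level, and it was at or under the 3 h level in 31 members and 1 to 1.1 times it in 24. In both clones, 51 members had every 3 h library above every 0 h library, which the required rise favours. No such count was made over all genes. The libraries of 3 h and 6 h overlapped for 42 members in BAP1-AID and 48 in UTX-AID. For 11 and 6 members, all 6 h libraries lay below all 3 h libraries, and for 2 and 1 above them. These counts too were made for the members only, and the plateau limit, with no lower bound, favours overlap or a fall. Within a clone, the 6 h mean was over 1.1 times the 3 h mean for 7 members in BAP1-AID and 12 in UTX-AID. By level at 3 h, 21 members were under 5 CPM, 25 were at 5 to 50 CPM and 9 were at 50 CPM or more, and the median level at 0 h was 2.14 CPM, against 2.16 CPM for the still rising genes.

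**Figure D2:**
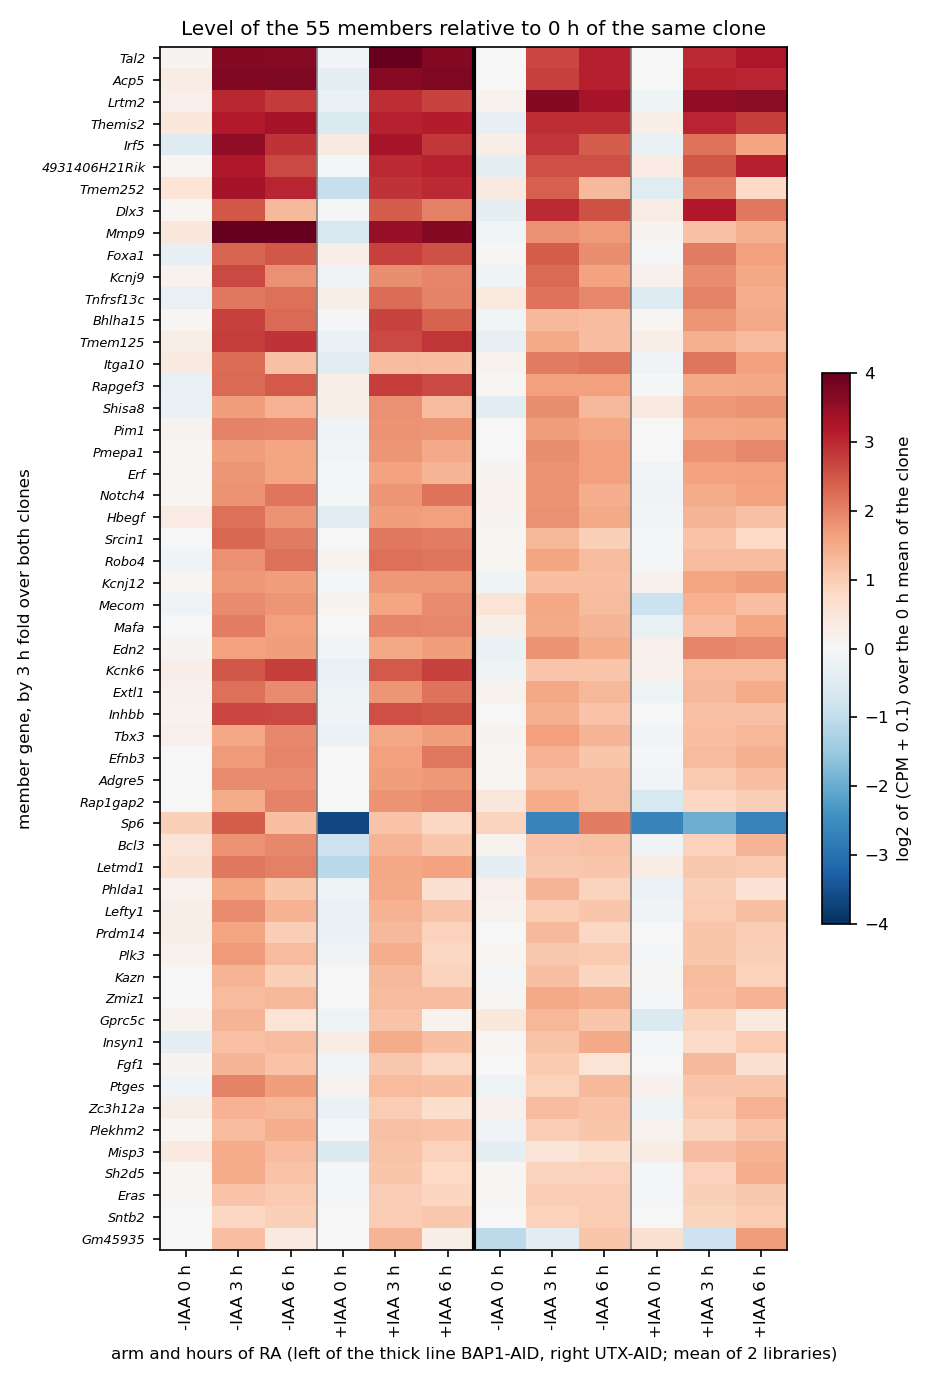
Level of the 55 members in the 12 groups, as log2 of the group mean (2 libraries) plus 0.1 CPM over the 0 h mean of the same clone, with genes ordered by their 3 h rise over both clones. In every 3 h and 6 h group, 53 members lie above the 0 h mean of their clone, and Sp6 and Gm45935 do not.

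The largest group by role held 13 transcription factors and coregulators, with a median 3 h rise of 3.14 times (range 2.42 to 10.3). Tal2, a basic helix-loop-helix factor, led the whole set at 10.3 times. Its 4 libraries in BAP1-AID, the 2 -IAA libraries before the 2 +IAA libraries, were at 1.53, 1.18, 1.35 and 0.958 CPM at 0 h, at 15.7, 18.6, 19.9 and 22.4 CPM at 3 h, and at 17.7, 16.1, 17.4 and 16.8 CPM at 6 h. In UTX-AID the same libraries were at 0.595, 2.57, 1.59 and 1.51 CPM, then 8.83, 12.4, 13.4 and 12.7 CPM, then 12.1, 16.4, 16.5 and 14.3 CPM. All 3 h and 6 h libraries stood above all 0 h libraries, and the 3 h and 6 h ranges overlapped in both clones.

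Irf5, an interferon regulatory factor, rose 7.76 times and then stood at 0.688 of its 3 h level. Its 3 h libraries were at 5.24 to 7.56 CPM in BAP1-AID and 3.58 to 6.62 CPM in UTX-AID, and its 6 h libraries at 3.44 to 4.56 and 1.87 to 4.84 CPM. Irf5 overlaps Tnpo3 on the opposite strand, which stood at 373 CPM against a mean of 3.26 CPM for Irf5, and whether counting used strand is not given in the sources used here, so reads of the pair may be mixed. Dlx3, a homeobox factor, rose 6.51 times from near 0 and had the lowest 6 h to 3 h ratio of the set, at 0.595. Over both clones it was at 0 to 0.321 CPM before RA, at 0.881 to 1.40 CPM after 3 h and at 0.297 to 1.02 CPM after 6 h, with 4 of its 8 libraries at 0 h listed at 0.

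Foxa1, the pioneer factor of endoderm, was a member from a list of 18 endoderm and primitive endoderm factors. Gata4 and Gata6 of that list were dropped by symbol, but neither was among the plateau genes so removed. Foxa1 rose 5.47 times. Its 3 h libraries were at 4.30 to 6.18 CPM in BAP1-AID and 1.72 to 2.64 CPM in UTX-AID. Tbx3, a T-box factor that also acts in naive pluripotency, was the only member among 27 mesoderm and heart factors. It rose 2.81 times, and its libraries were at 5.56 to 11.3 CPM before RA and 17.8 to 30.6 CPM at 3 h over both clones. No gene of the neural and hindbrain list (45 genes, 44 in the table) was a member.

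Bhlha15, a factor of secretory cells, rose 4.30 times, and Mafa, known from the beta cell, 3.13 times. Mecom, Zmiz1 and Erf, a repressor of the ETS family, rose 3.14, 2.42 and 3.25 times. Prdm14, a factor of naive pluripotency and germ cells, rose 2.51 times and stood at 0.760 of that level at 6 h. Bcl3, a nuclear coregulator of the IkB family, rose 2.53 times. Erf was the most abundant factor of the group, at 162 to 217 CPM in the 3 h libraries of both clones.

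Sp6, a zinc finger factor, met the rule without a plateau. Its BAP1-AID libraries, in the order used for Tal2, were at 0, 4.57, 0 and 0 CPM at 0 h, at 8.99, 4.01, 5.25 and 0 CPM at 3 h, and at 0.0814, 5.43, 4.19 and 0 CPM at 6 h. In UTX-AID a -IAA library at 0 h was at 2.13 CPM, a +IAA library at 3 h at 0.130 CPM and a -IAA library at 6 h at 5.19 CPM, and the other 9 were at 0. Sp6 was listed at 0 in 14 of the 24 libraries, and in 5 groups a library with 0 counts stood beside a library with 106 to 266 counts. Gm45935 showed the same in 3 groups and was lower at 3 h than at 0 h in UTX-AID (2.18 against 3.44 CPM). No weight is placed on the values of these 2 genes.

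Ligands and their feedback regulators formed a group of 7 with rises of 2.30 to 3.36 times. Among 29 genes of the TGF-beta, Nodal and BMP pathway, Lefty1, Inhbb and Pmepa1 were members. The Id genes of that list were dropped by symbol, but none was among the plateau genes so removed. Lefty1, a secreted antagonist of Nodal, was at 74.3, 60.4, 47.8 and 45.3 CPM at 0 h in BAP1-AID, at 234, 186, 146 and 155 CPM at 3 h, and at 148, 152, 122 and 128 CPM at 6 h. In UTX-AID it was at 96.2, 64.7, 76.4 and 57.3 CPM, then 167, 129, 164 and 134 CPM, then 175, 145, 175 and 164 CPM. The 0 h libraries stood below all others in both clones.

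Inhbb encodes the beta B subunit of activin and inhibin and rose 2.96 times. Pmepa1, a feedback inhibitor of TGF-beta signalling, rose 3.36 times, with libraries at 4.501 to 11.7 CPM before RA and 20.5 to 37.2 CPM at 3 h over both clones. The other ligands were Hbegf, which binds the EGF receptor (3.23 times), the endothelin gene Edn2 (3.11), the ephrin gene Efnb3 (2.73) and Fgf1 (2.30). The lists of 18 FGF-ERK feedback genes and 39 axon guidance and adhesion genes held 0 members, but they do not contain Fgf1, Efnb3, Robo4, Itga10 or Adgre5. The 32 immediate early genes and 22 stress genes on the lists also held 0 members. Of the immediate early genes dropped by symbol, Dusp5 alone had met the limits.

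The 6 receptors rose 2.32 to 4.37 times. Notch4 was the only member among 18 genes of the Notch pathway, and rose 3.25 times, with libraries at 3.91 to 8.13 CPM at 0 h and at 15.2 to 26.7 CPM at 3 h over both clones. In BAP1-AID it was higher still at 6 h, at 20.7 to 21.9 CPM, and in UTX-AID it was not, at 20.0 to 22.3 CPM. Robo4, a roundabout receptor of endothelium, rose 3.18 times, Tnfrsf13c, the receptor for BAFF, 4.37 times and Itga10, an integrin subunit, 4.08 times. Adgre5, an adhesion receptor also known as CD97, rose 2.73 times to 67.8 to 97.0 CPM in the 3 h libraries, and it overlaps Ddx39a on the opposite strand at 418 CPM. Gprc5c, an orphan receptor of a family first found through RA, rose 2.32 times and fell back to 0.618 of the 3 h level.

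Of 10 members that act in signalling inside the cell, Themis2, an adaptor of immune cells, rose 8.24 times. Rapgef3, which activates the GTPase Rap in response to cAMP, rose 3.59 times and Rap1gap2, which inactivates Rap, 2.57 times. Pim1, a serine/threonine kinase, was at 37.2 to 49.0 CPM before RA over both clones, rose 3.37 times to 131 to 171 CPM after 3 h, and was at 123 to 170 CPM after 6 h. Plk3 rose 2.48 times, Phlda1 2.52 times and Eras, the Ras gene of ESCs, 2.02 times. Phlda1 stood at 0.689 of its 3 h level at 6 h.

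The 7 channel and membrane proteins rose 3.10 to 9.35 times, with Lrtm2 at the top. Kcnj9, Kcnj12 and Kcnk6, which encode potassium channels, rose 4.55, 3.16 and 3.10 times. Tmem252 rose 6.71 times from 0.201 to 2.54 CPM in BAP1-AID and from 0.212 to 1.37 CPM in UTX-AID, and Tmem125 rose 4.17 times. Tmem252 and Kcnj9 then stood at 0.753 and 0.736 of their 3 h level. Shisa8, with a rise of 3.44 times, overlaps Srebf2 on the opposite strand at 143 CPM.

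The enzymes Acp5, Mmp9, Extl1 and Ptges rose 9.51, 5.75, 3.02 and 2.23 times, and all 4 stood at 1.01 to 1.09 of their 3 h level at 6 h. Acp5, the tartrate-resistant acid phosphatase of osteoclasts and macrophages, was at 2.26, 3.45, 1.86 and 1.58 CPM at 0 h in BAP1-AID, at 33.1, 29.4, 30.3 and 29.3 CPM at 3 h, and at 31.1, 32.2, 32.5 and 30.9 CPM at 6 h. In UTX-AID it was at 3.97, 3.84, 3.64 and 4.17 CPM, then 24.6, 28.9, 30.5 and 36.3 CPM, then 32.0, 37.3, 34.4 and 32.0 CPM. The 3 h and 6 h ranges overlapped in both clones, far above the 0 h libraries. The remaining 8 members included the unnamed locus 4931406H21Rik, at 7.01 times, and Letmd1, Kazn, Insyn1, Plekhm2, Misp3 and Sntb2, at 1.89 to 2.53 times.

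The values on either side of the limits lay close together. Just inside the plateau limit were Efnb3 (1.089), Mmp9 (1.095) and Kcnk6 (1.099), as 6 h over 3 h, and just outside were Dchs1 (1.104), Dok4 (1.105) and Foxp1 (1.114). Just inside the limit on the rise were Sntb2 (2.01), Eras (2.03) and Misp3 (2.11), as the smaller of the rises in the 2 clones, and just outside were Glis2 (1.97), Gpr157 (1.99) and Elovl6 (1.998). With each library left out in turn, 51 to 60 genes met the rule and at least 47 of them were among the 55, and 30 of the 55 met it every time. Only the -IAA libraries gave 66 genes, of which 43 were among the 55, and only the +IAA libraries gave 54, of which 41 were. A total of 33 members met the rule in both arms.

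Whether IAA altered the response was not set directly by the rule, which averaged the arms. The median 3 h rise of the members was 3.58 times in both arms of BAP1-AID. In UTX-AID it was 2.64 times without and 2.53 times with IAA. The median 6 h to 3 h ratio was 0.934 without and 0.938 with IAA in BAP1-AID. In UTX-AID these ratios were 0.906 and 1.005. In 42 members the 3 h level was at least 2 times the 0 h level in all 4 combinations of clone and arm. In 24 members the 6 h level was at most 1.1 times the 3 h level in all 4. The rule set both limits on means over the arms, so agreement between the arms is partly built in. With edgeR's quasi-likelihood test, 0 of 55 members had a 3 h response altered by IAA in BAP1-AID (0% of all 15695 genes tested) and 0 in UTX-AID (0.0123% of 16268). For the 6 h response the counts were 0 in BAP1-AID (0.0255% of all genes) and 0 in UTX-AID (0%).

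DESeq2 also called 0 members in these 4 comparisons, and an unadjusted p under 0.05 was met by 8 and 5 members in BAP1-AID, at 3 h and 6 h (7.49% and 10.3% of all genes), and by 2 and 7 in UTX-AID (4.12% and 3.43%). The median difference over the members was 0.11 (quartiles -0.04 and 0.29) at 3 h and 0.14 (-0.15 and 0.53) at 6 h in BAP1-AID on the log2 scale, beside medians of 0.01 and -0.02 over all genes. In UTX-AID it was -0.02 and 0.04, beside 0.00 and 0.00. A member's SE had a median of 0.27 for BAP1-AID and of 0.34 for UTX-AID. A call also needed a log2 difference beyond 1 and the adjustment over all genes. A difference in response of several SE could therefore go uncalled for a single member. The 3 h and 6 h comparisons share their 0 h libraries.

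Among the members with the smallest p in BAP1-AID, the 3 h response of Bcl3 was larger with IAA by 1.02 (SE 0.30, edgeR adjusted p = 0.394) and that of Irf5 smaller, at -1.32 (SE 0.46, edgeR adjusted p = 0.503). For Acp5 the difference was 0.67 (SE 0.22) at 3 h and 0.74 (SE 0.22) at 6 h, with edgeR adjusted p = 0.470 and 0.253. None of these passed the adjustment over all genes. At 0 h in BAP1-AID both +IAA libraries were below both -IAA libraries for Bcl3 and Acp5, and above them for Irf5.

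**Figure D3:**
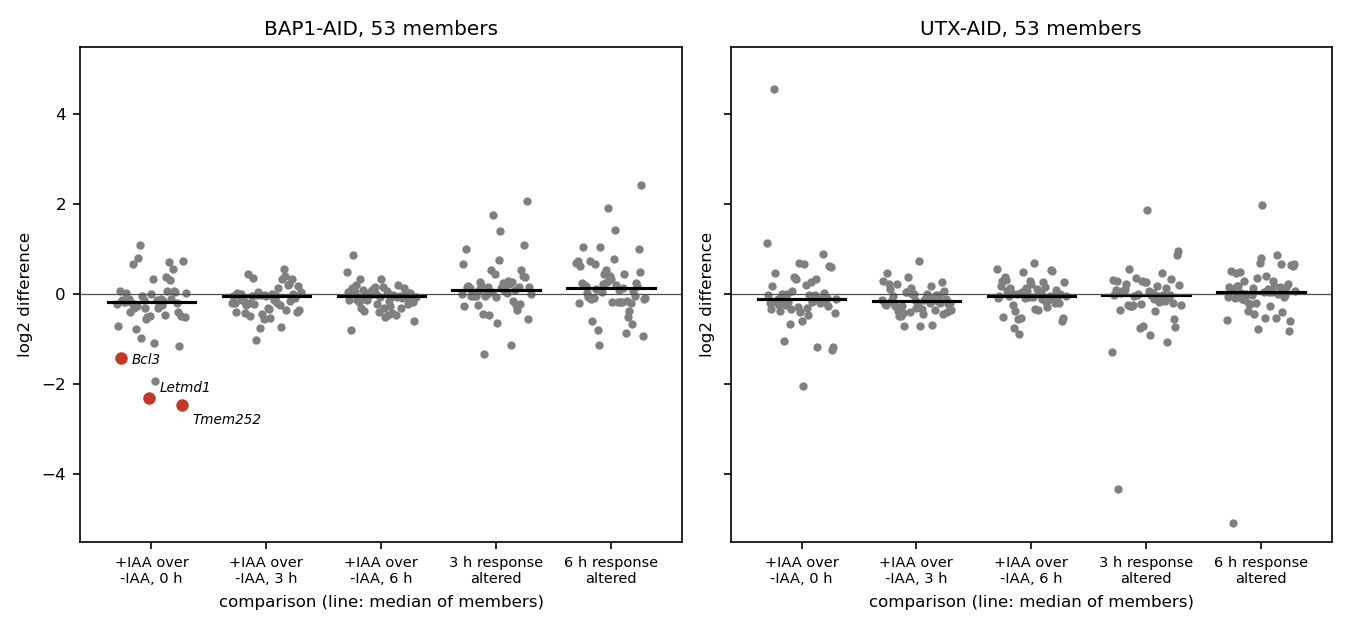
Log2 differences of 53 members (Sp6 and Gm45935 left out) between +IAA and -IAA at 0, 3 and 6 h, and in the 3 h and 6 h response, in BAP1-AID (left) and UTX-AID (right), with each dot a member, the line their median and red dots the members that passed adjusted p under 0.05 and a log2 change over 1 (edgeR). Red dots appear only at 0 h in BAP1-AID, and the far points of UTX-AID are Dlx3, which is near 0 at 0 h.

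At 0 h, before RA, edgeR called 3 members lower with IAA in BAP1-AID (1.15% of all genes were called). DESeq2 called more members, with the count given among the other settings below. Bcl3 fell from 2.30 and 2.51 CPM to 0.739 and 1.02 CPM, a log2 fold change of -1.42 (SE 0.23, edgeR adjusted p = 0.000967). Tmem252 was at 0.383 and 0.301 CPM without and 0 and 0.120 CPM with IAA (-2.47, SE 0.70, edgeR adjusted p = 0.0294), and Letmd1 at 0.593 and 0.602 against 0.228 and 0 CPM (-2.31, SE 0.73, edgeR adjusted p = 0.0469). The call for Bcl3 held with each library left out. That for Tmem252 was lost without either -IAA library of 0 h or without replicate 1 of +IAA at 0 h, and its values ranged from -7.10 (without replicate 2 of +IAA at 0 h) to -1.45 over the removals. That for Letmd1 was lost in 9 of 12 removals, with no filter on low counts and with the adjustment for GC and length described below, and its values ranged from -7.90 (without replicate 1 of +IAA at 0 h) to -1.34 over the removals. Letmd1 overlaps Csrnp2 on the opposite strand at 16.1 CPM, against 1.60 CPM for Letmd1.

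With no limit on the fold change, 8 members were lower with IAA at 0 h in BAP1-AID at an adjusted p under 0.05, as were 18.5% of all genes in either direction. Besides the 3 above these were Lefty1 at -0.50 (SE 0.12), Acp5 at -0.69 (SE 0.18), Hbegf at -0.77 (SE 0.21), Pim1 at -0.24 (SE 0.07) and Prdm14 at -0.47 (SE 0.15). At 3 h and at 6 h with IAA, 0 members were called, against 0.892% and 1.61% of all genes, and 0 with DESeq2. An unadjusted p under 0.05 was met by 6 and 4, and by 28.4% and 25.7% of all genes. Lefty1 at 3 h (-0.44, SE 0.11, edgeR adjusted p = 0.0261) and Plk3 and Bcl3 at 6 h (-0.40, SE 0.08 and -0.79, SE 0.20) passed the adjusted p alone, as did 13.3% and 12.5% of all genes at these times with no limit on the fold change.

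Averaged over the 3 RA times, 1 member was called in BAP1-AID, against 1.51% of all genes. It was Letmd1, at -1.09 (SE 0.36, edgeR adjusted p = 0.0350). Its call was lost without any of 9 of the 12 libraries, and its value moved to -2.94 without replicate 1 of +IAA at 0 h. With no limit on the fold change 14 members passed, 13 lower and Robo4 higher (0.23, SE 0.08), against 36.1% of all genes in either direction. Bcl3 (-0.87, SE 0.12, edgeR adjusted p = 0.000151), Plk3 (-0.28, SE 0.04) and Lefty1 (-0.39, SE 0.07) had the smallest p.

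The median over the members was -0.14, against -0.04 for all genes, and -0.00126 against 0.01 once transcript GC and length were adjusted for. The separate parts of GC and of length were not tested. With the adjustment Bcl3 was at -0.69 (SE 0.12, edgeR adjusted p = 0.00131) and Lefty1 at -0.15 (SE 0.05, edgeR adjusted p = 0.0300). Letmd1 was no longer called, at -0.90 (edgeR adjusted p = 0.0835), and Tmem252 was, at -1.09 (edgeR adjusted p = 0.0222).

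In UTX-AID 0 members were called by edgeR or DESeq2 for IAA averaged over the RA times (0.135% of all genes), at 0 h (0.0184%), at 3 h (0.043%) or at 6 h (0.0123%). An unadjusted p under 0.05 was met by 15, 14, 13 and 5 members, and by 15.6%, 8.01%, 9.33% and 6.26% of all genes. Blocking on replicate number gave 1 call at 0 h, for which no share of all genes was counted. With no limit on the fold change, the average was lower with IAA for 4 members, against 2.62% of all genes in either direction. They were Gprc5c (-0.75, SE 0.14), Irf5 (-0.75, SE 0.16), Erf (-0.16, SE 0.04) and Rap1gap2 (-0.72, SE 0.18). The median over the members was -0.08, against -0.00225 for all genes. The difference between the clones in the IAA effect was tested directly, as a comparison added after the data were seen, and 3 members were called, against 2.22% of all genes. Irf5 differed by 1.06 (BAP1-AID minus UTX-AID, SE 0.24, edgeR adjusted p = 0.00218), Misp3 by -1.26 (SE 0.34, edgeR adjusted p = 0.00752) and Letmd1 by -1.28 (SE 0.39, edgeR adjusted p = 0.0195), which was lost with the adjustment for GC and length (edgeR adjusted p = 0.0547).

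The clones themselves differed in how far the members rose over their 0 h level. In 47 of 55 members the 3 h rise was larger in BAP1-AID, with a median of 3.42 times against 2.64 times in UTX-AID. No such count was made over all genes or over the still rising genes. The median level at 0 h was 1.64 CPM in BAP1-AID and 2.72 CPM in UTX-AID. At 3 h these medians were 8.30 and 7.96 CPM. By edgeR over all 24 libraries, the 3 h response of 6 members was larger in BAP1-AID, that of 0 members was larger in UTX-AID, and 0.262% of all genes were called (42 higher, 2 lower). The median difference was 0.41 on the log2 scale (quartiles 0.11 and 0.84), against 0.01 over all genes. The still rising genes stood at a median of 0.35, with 12 of 138 called (8.70%), so the larger response was not particular to genes at their plateau. Both sets were chosen by their rise in these libraries, and all genes were not. The share over all genes is therefore no measure of an excess among the members. The rule required a rise in each clone, and each clone is a single line, so genotype, tag and clone cannot be told apart.

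Inhbb had the smallest p, with a difference of 1.38 (SE 0.13, edgeR adjusted p = 9.61e-07). In BAP1-AID its libraries were at 4.06, 2.69, 2.79 and 2.77 CPM at 0 h, at 20.0, 20.2, 19.1 and 18.7 CPM at 3 h, and at 20.0, 19.8, 18.4 and 17.0 CPM at 6 h. In UTX-AID they were at 20.9, 19.6, 19.2 and 21.8 CPM, then 52.2, 57.2, 48.6 and 43.4 CPM, then 47.5, 42.3, 42.6 and 48.6 CPM. The larger rise of 6.18 against 2.46 times thus started from a lower level, and every UTX-AID library stood above every BAP1-AID library of the same time.

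Kcnk6 differed by 1.36 (SE 0.17, edgeR adjusted p = 5.20e-05), Tmem125 by 1.26 (SE 0.19, edgeR adjusted p = 0.000531) and Bhlha15 by 1.23 (SE 0.18, edgeR adjusted p = 0.000431). In BAP1-AID Kcnk6 was at 1.24 to 2.71 CPM before RA and at 10.5 to 12.2 CPM after 3 h, and in UTX-AID at 4.88 to 7.07 and then 12.7 to 15.3 CPM. Bhlha15 was at 2.54 to 3.31 and then 17.5 to 21.1 CPM in BAP1-AID libraries, and at 3.93 to 6.30 and then 12.2 to 17.8 CPM in those of UTX-AID. For Kcnk6 the clones were apart at 0 h and at 3 h, and for Bhlha15 they overlapped at 3 h.

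Mmp9, a matrix metalloproteinase, differed most, by 3.12 (SE 0.50, edgeR adjusted p = 0.00124), from 0 h levels of 0.287, 0.181, 0.114 and 0 CPM in BAP1-AID and 0.446, 0.643, 0.383 and 0.895 CPM in UTX-AID. At 3 h it was at 2.53 to 4.42 and 1.37 to 2.40 CPM. The size rests on a library at 0 at 0 h, and rose to 5.44 without replicate 1 of +IAA at 0 h in BAP1-AID. Srcin1, an inhibitor of SRC signalling, differed by 1.03 (SE 0.24, edgeR adjusted p = 0.0470), and its call was lost with 19 of 24 libraries left out in turn and with the adjustment for GC and length. The calls for the other 5 held with each library left out.

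**Figure D4:**
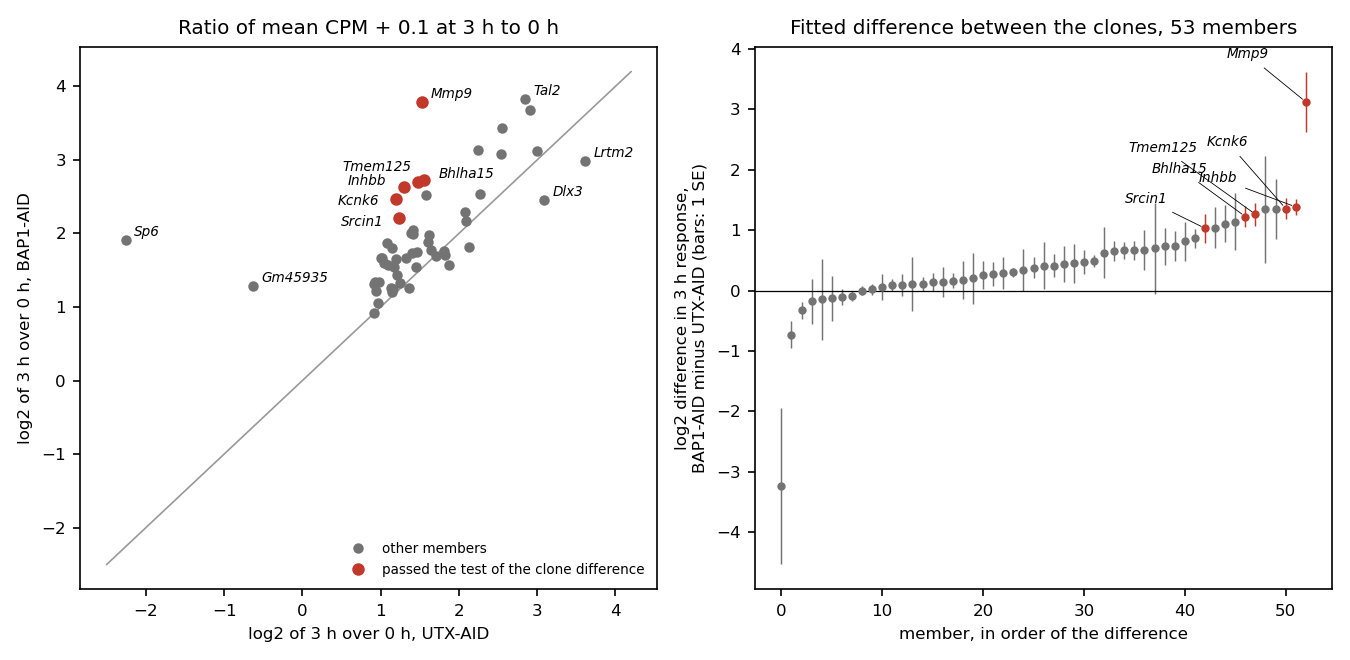
Left, log2 of the 3 h over the 0 h mean (CPM plus 0.1) of each member in UTX-AID against BAP1-AID, with the diagonal of equal response. Right, the edgeR estimate of the difference in 3 h response (BAP1-AID minus UTX-AID) with 1 SE for 53 members (Sp6 and Gm45935 left out). Red marks the 6 members that passed the test, all above 0, and 47 of 55 members lie above the diagonal.

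For the change from 3 h to 6 h, 0 of 55 members were called as different between the clones by edgeR or DESeq2, against 0.0119% of all genes, and an unadjusted p under 0.05 was met by 10, and by 10.1% of all genes. The median difference was -0.04 (quartiles -0.31 and 0.23), against 0.02 for all genes and 0.23 for the still rising genes. The plateau limit was set on the mean of both clones, so members could lean either way. Plk3 (-0.43, SE 0.10, edgeR adjusted p = 0.0873) and Notch4 (0.50, SE 0.12, edgeR adjusted p = 0.0885) had the smallest p. Plk3 went from 59.5 to 41.6 CPM in BAP1-AID and from 61.8 to 58.0 CPM in UTX-AID, as clone means.

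Before RA, 22 members differed in level between the clones, 8 higher and 14 lower in BAP1-AID. Of all 16816 genes tested 23.2% were called, and of the still rising genes 36.2%. The 10 with the smallest p were Zmiz1 (1.996, SE 0.06), Edn2 (2.11, SE 0.11), Kcnj12 (1.87, SE 0.15) and Gprc5c (1.14, SE 0.16), which were higher in BAP1-AID, and Inhbb (-2.71, SE 0.10), Zc3h12a (-3.04, SE 0.19), Hbegf (-2.08, SE 0.15), Kcnk6 (-1.62, SE 0.13), Ptges (-2.495, SE 0.25) and Efnb3 (-1.08, SE 0.13), which were lower. Their edgeR adjusted p ranged from 9.59e-18 for Zmiz1 to 1.08e-06 for Gprc5c. The call for Gprc5c was lost with GC and length adjusted for, where its value was as low as 0.84. Zc3h12a, an endoribonuclease that cuts inflammatory transcripts, rose 2.31 times from 1.12 CPM in BAP1-AID and 2.21 times from 9.28 CPM in UTX-AID. Zmiz1 rose 2.38 times from 64.1 CPM in BAP1-AID and 2.57 times from 16.3 CPM in UTX-AID. The difference in 3 h response was -0.09 (SE 0.08) for Zmiz1 and 0.15 (SE 0.25) for Zc3h12a, and neither was called (edgeR adjusted p = 0.915 and 1.00). For Inhbb, Kcnk6 and Mmp9 the clone with the lower start had the larger rise. The same held for Bhlha15 (-0.76 at 0 h), Tmem125 (-0.75) and Srcin1 (-0.71), and so for all 6 members called in the 3 h response. The level at 0 h and the 3 h response share their 0 h libraries, so these are not independent.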

How the data were processed

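Polyadenylated RNA of 24 mouse ESC libraries was sequenced. Per the study's methods, the authors aligned reads to mm39 with HISAT2 2.2.1, handled alignments with SAMtools 1.19 and tracks with deepTools 3.5.4, and deposited StringTie 2.2.1 estimated counts per gene, which were whole numbers and were used as deposited. The annotation and the strand setting are not given in the sources used here. Samples were grouped by clone, IAA and RA time.

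The members were found by the rule above, and members and gene lists were chosen with earlier results of these data known. Roles were assigned once the members were known. Tests used edgeR 4.0.16 (quasi-likelihood, TMM, filterByExpr with a minimum count of 10 and total of 15, 1 coefficient per group) on all genes passing the filter, with Benjamini-Hochberg adjustment over all of them. Within-clone fits used 12 libraries and clone comparisons 24. All 55 members passed the filter. Genes named from a test were those called, up to the 10 with the smallest adjusted p, others were named by size of rise, by list or after their values were seen. DESeq2 1.42.0 and other settings were alternatives. The fits were tested on simulated data. TMM factors ranged from 0.965 to 1.03. Replicate libraries correlated at r of 0.982 to 0.986 over genes, so none was counted as a duplicate. Promoters were read from GRCm39 at GENCODE starts, and 91% of genes matched by symbol. Floors cover counting error only. The check of the retinoid genes and the clone difference in the IAA effect were added after the data were seen.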

Additional observations from a re-analysis of the deposited data

Results flagged for a closer look

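In 6 members the 3 h response differed between the clones in the edgeR fit, and each was larger in BAP1-AID. Of the still rising genes, chosen by the same rise, 8.70% were called, and of all genes 0.262%. The differences on the log2 scale were 3.12 for Mmp9, 1.23 for Bhlha15, 1.26 for Tmem125, 1.03 for Srcin1, 1.36 for Kcnk6 and 1.38 for Inhbb. In 3 members the IAA effect averaged over the RA times differed, with values for BAP1-AID minus UTX-AID of 1.06 for Irf5, -1.28 for Letmd1 and -1.26 for Misp3. The IAA effect on Irf5 was 0.29 (SE 0.18) in BAP1-AID and -0.75 (SE 0.16) in UTX-AID. That on Misp3 was -0.57 (SE 0.27) in BAP1-AID, and 0.71 (SE 0.20) in UTX-AID. That on Letmd1 was -1.09 (SE 0.36) in the former and 0.21 (SE 0.18) in the latter.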

How the results depend on the processing

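The number of genes that met the rule was 31 with a plateau limit of 1.0, 86 with 1.2 and 36 with the limit in each clone apart, and 51 to 60 with each library left out. It was 58, 37 and 54 with a pseudocount of 0, a pseudocount of 1 and TMM scaling. With no limit on the fold change, the members called for IAA in BAP1-AID were 14 for the average, 8 at 0 h, 1 at 3 h and 2 at 6 h, with 4 for the average in UTX-AID, against 36.1%, 18.5%, 13.3%, 12.5% and 2.62% of all genes in that order. In the comparisons of the clones they were 42 for the level at 0 h, 10 for the 3 h response and 11 for the averaged IAA effect, against 62.2%, 0.755% and 25.9% of all genes. DESeq2 called 2 members for the average and 6 at 0 h in BAP1-AID. With the replicate block, 2 were called for the average in BAP1-AID and 1 at 0 h in UTX-AID, and the latter was 1 also with GC and length in the same fit. The share of all genes called by DESeq2 or with the block was not counted, so these counts are not read as particular to the members. Between groups, the deviations of same-numbered libraries from their group means correlated at r of -0.0609 to 0.342 in BAP1-AID. In UTX-AID r was -0.0753 to 0.279. In BAP1-AID 1 of 15 pairs of groups was over 0.1, and in UTX-AID 10 of 15 were. The main fits did not use the replicate number, and the block was run as an alternative. In UTX-AID most pairs were over 0.1, so a part shared by same-numbered libraries cannot be set aside there, and its source was not tested.

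With each library left out, the calls ranged from 0 to 4 for the average and 2 to 5 at 0 h in BAP1-AID, 19 to 23 for the level at 0 h, 5 to 7 for the 3 h response and 2 to 5 for the clone difference in the averaged IAA effect. The share of all genes was not counted in these fits either. No called value that was followed over the settings changed sign. Of the 22 members called for the level at 0 h, only the 10 with the smallest adjusted p were followed. With GC and length adjusted for, the median over the members changed sign for IAA in BAP1-AID at 3 h (-0.05 to 0.06) and 6 h (-0.05 to 0.08), for IAA in UTX-AID at 6 h (-0.03 to 0.00399) and for the clone difference in the averaged IAA effect (-0.10 to 0.00173), and with the replicate block also for the averaged IAA effect in BAP1-AID. With a library left out it changed sign for IAA at 6 h in each clone (without -IAA 6 h replicate 1) and for the altered 3 h and 6 h responses in UTX-AID (4 removals in all), so these medians near 0 carry no direction. For the clone difference in the averaged IAA effect, the call for Irf5 was lost in 5 of 24 removals, that for Letmd1 without replicate 2 of +IAA at 0 h in BAP1-AID, and that for the level of Efnb3 in 2. Tmem252 at 0 h was lost with all 24 libraries in 1 fit (edgeR adjusted p = 0.121). The cause was not tested. Members near 3 counts in some libraries, such as Dlx3, Tmem252, Letmd1 and Mmp9, are limited by depth.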
